A study of Mus musculus with 9 samples.

Results

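The alveolar type 1 (AT1) cell genes described here were 9 genes of 34638 in a table of lung RNA-seq, taken by symbol (*Ager*, *Hopx*, *Aqp5*, *Pdpn*, *Rtkn2*, *Emp2*, *Clic5*, *Akap5* and *Igfbp2*), and each symbol named 1 row. RNA was measured in whole lung of 9 C57BL/6 wild-type mice, 3 in each of 3 groups. Control mice were given PBS. IL-33 mice were given recombinant mouse IL-33 by the trachea, 0.5 µg each on days 0, 1, 2 and 3, and IL-33+LM8 mice were given the same IL-33 after LM8, a MyD88 inhibitor, at 10 mg/kg into the peritoneum. In the study's methods the control and IL-33 mice were female, 6 to 8 weeks old, and were killed on day 4, whereas the sex, age and harvest day of the IL-33+LM8 mice, and any injection of vehicle in the other groups, were not given in the sources used here. No gene was deleted in any group, and no group received LM8 without IL-33.

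AT1 cells are the flat epithelial cells that line most of the gas-exchange surface of the lung and lie against the capillaries. In the adult lung they are renewed from alveolar type 2 (AT2) cells, the cuboidal makers of surfactant, and the regulators NKX2-1, YAP, TAZ and the TEAD factors maintain their identity. IL-33 is an alarmin that signals through its receptor ST2 and the adaptor MyD88 and drives type 2 inflammation of the airway. The comparisons asked how the RNA of this cell type stood after IL-33, and how it stood when the MyD88 inhibitor LM8 was given as well.

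All 9 genes were measured deeply, with between 3411 and 136340 reads in every library, and all passed the filter of a mean of at least 0.5 FPKM (mapped fragments scaled to the length of the gene and to the depth of the library, a level that can be compared between genes). In control lungs *Ager* stood at 847 ± 41.2 FPKM (SD, n = 3), *Hopx* at 224 ± 17.9, *Emp2* at 162 ± 4.49 and *Clic5* at 122 ± 0.851, and the other 5 genes had means between 47.4 and 79.4 FPKM. None of these genes was at 0 in any library. *Pdpn* is also made by lymphatic endothelium and mesothelium, and *Igfbp2* by other lung cells, so those levels are not of AT1 cells alone. Total counts lay between 53877663 and 90607218 per library. In the coordinates of the deposited table *Hopx* overlaps the antisense gene *Hopxos* and *Rtkn2* overlaps *Gm16212* on the other strand. Whether counting used strand was not given in the sources used here, so reads of these pairs may not be told apart.

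The table places *Ager* (ENSMUSG00000015452) at chr17:34816836-34819910 on the plus strand, *Clic5* at chr17:44445659-44591059 on the plus strand, *Akap5* (ENSMUSG00000021057) at chr12:76371665-76380927 on the plus strand and *Pdpn* (ENSMUSG00000028583) at chr4:142994001-143026134 on the minus strand. These are whole gene spans. The processing notes name mm10, but only 578 of 32643 gene identifiers shared with the GENCODE M21 annotation of GRCm38 had the same position, and none of the 9 genes did, so the build of these coordinates was not settled. Promoters were therefore read from RefSeq on GRCm38.p6 by symbol, and 8 of the 9 genes had an entry, in 10 windows. Shown are the 250 bases before the start of *Ager*, the most abundant gene, of *Akap5*, the gene with the lowest ratio of IL-33 to control, and of *Pdpn*, the gene that went the other way, each read 5′ to 3′ on the strand of the gene with CpG dinucleotides in capitals.
Ager, chr17:34597600-34597849, plus strand: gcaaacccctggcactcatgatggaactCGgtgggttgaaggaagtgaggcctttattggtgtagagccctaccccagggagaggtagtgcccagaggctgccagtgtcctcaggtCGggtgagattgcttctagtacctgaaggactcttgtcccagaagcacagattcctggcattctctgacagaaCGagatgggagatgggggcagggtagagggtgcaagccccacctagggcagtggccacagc
Akap5, chr12:76324641-76324890, plus strand: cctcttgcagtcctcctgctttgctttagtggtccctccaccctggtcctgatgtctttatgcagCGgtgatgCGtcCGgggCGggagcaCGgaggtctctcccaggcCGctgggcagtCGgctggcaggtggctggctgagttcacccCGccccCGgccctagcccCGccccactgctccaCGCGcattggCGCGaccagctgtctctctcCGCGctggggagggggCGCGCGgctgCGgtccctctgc
Pdpn, chr4:143299565-143299814, minus strand: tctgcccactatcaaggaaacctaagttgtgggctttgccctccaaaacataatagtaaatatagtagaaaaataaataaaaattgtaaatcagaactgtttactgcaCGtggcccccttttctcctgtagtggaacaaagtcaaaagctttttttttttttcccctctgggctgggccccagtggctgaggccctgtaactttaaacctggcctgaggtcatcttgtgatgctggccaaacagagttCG
The *Akap5* stretch held 20 CpG and was 70.0% G and C, while that of *Ager* held 3 CpG at 57.6% and that of *Pdpn* 2 CpG at 43.2%. The median over all 32851 windows was 6 CpG and 52.4% G and C. By CpG count *Ager* lay below that median and *Akap5* above it, although both fell after IL-33, whereas by G and C content both lay above it and *Pdpn* below. In windows of 300 bases, from 250 before to 50 after the start, the TEAD core GGAATG on either strand was found in 0 of the 10 windows of the 9 genes, and in 14.7% of all windows. The NKX2-1 core CAAGTG on either strand was found in 1 of the 10, a window of *Hopx*, and in 13.6% of all. A match is a description of letters and says nothing of binding, and the lack of one concerns this window alone.

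Most of the AT1 genes were lower after IL-33. Compared with control lungs, 7 of the 9 genes were lower, *Pdpn* was higher, and *Igfbp2* did not pass the test (edgeR quasi-likelihood test, Benjamini-Hochberg adjusted p under 0.05, which is meant by "passed" throughout). Over all 16831 genes tested, 27.2% passed as lower and 27.4% as higher. *Akap5*, *Rtkn2*, *Hopx* and *Emp2* also passed a minimum of 2-fold, which 6.24% of all genes did as lower. In 7 genes the highest IL-33 lung lay under the lowest control lung, as in 31.7% of all genes tested. The median log2 fold change was -0.97 over the 9 genes and -0.0053 over all genes. In whole-lung RNA, fewer AT1 cells, less RNA per AT1 cell and a larger share of RNA from other cells cannot be told apart.

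*Ager* encodes RAGE, the receptor for advanced glycation end products, which sits on the basal side of AT1 cells. Its level was 894, 818 and 829.6 FPKM in the control lungs and 439, 439.8 and 456 FPKM in the IL-33 lungs. The groups did not overlap, and the mean was 1.90-fold lower after IL-33 (log2 fold change -0.93, SE 0.064, edgeR adjusted p = 2.5e-05). *Hopx* encodes a homeodomain protein that does not bind DNA itself and marks AT1 cells from early in their formation. It stood at 239.7, 228 and 205 FPKM in control lungs and at 82.2, 88.8 and 99.4 FPKM in IL-33 lungs. Every IL-33 lung was below every control lung, and the mean fell 2.49-fold (log2 fold change -1.32, SE 0.095, edgeR adjusted p = 3e-05).

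*Akap5* and *Rtkn2* fell as well. *Akap5*, which encodes an anchor that holds protein kinase A at the membrane, was at 63.3, 53.7 and 58.8 FPKM in control lungs and at 20.0, 20.2 and 17.0 FPKM after IL-33. These groups were far apart, with a mean 3.08-fold lower (log2 fold change -1.62, SE 0.093, edgeR adjusted p = 1.1e-05), and the ratio was the lowest of the 9 genes. *Rtkn2* was at 53.1, 40.6 and 49.9 FPKM in control lungs and at 18.2, 18.6 and 18.1 FPKM after IL-33. The IL-33 lungs were nearly alike and the control lungs more spread, without overlap, and the mean was 2.61-fold lower (log2 fold change -1.39, SE 0.10, edgeR adjusted p = 3e-05).

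*Emp2* encodes a small membrane protein that organizes the cell surface. It was at 167, 161 and 158 FPKM in control lungs and at 80.0, 79.7 and 83.3 FPKM after IL-33, a mean 2.00-fold lower (edgeR adjusted p = 1e-05). *Clic5*, whose product links the membrane to the actin cytoskeleton and is related to chloride channels, was at 121, 123 and 121 FPKM and then at 62.4, 61.0 and 62.8 FPKM. Its groups were the tightest of the 9 genes in control lungs, and the mean was 1.96-fold lower (log2 fold change -0.97, SE 0.049, edgeR adjusted p = 6e-06). *Aqp5*, the water channel of the apical surface, was at 75.7, 74.3 and 86.7 FPKM in control lungs and at 53.1, 44.3 and 43.9 FPKM after IL-33. It had the smallest fall among the 7 genes, 1.67-fold (log2 fold change -0.75, SE 0.090, edgeR adjusted p = 0.00036), again without overlap.

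*Pdpn* and *Igfbp2* differed from the other 7. *Pdpn* encodes podoplanin, a mucin-like membrane protein, and was at 48.1, 46.7 and 47.3 FPKM in control lungs and at 58.9, 54.9 and 60.0 FPKM after IL-33. All IL-33 lungs were higher, by 1.22-fold (log2 fold change 0.29, SE 0.050, edgeR adjusted p = 0.0021), and this call was lost with quantile normalization (log2 fold change 0.13, limma adjusted p = 0.066, with adjusted p between 3e-05 and 0.066 over 18 alternatives). *Igfbp2*, which encodes a binding protein of insulin-like growth factors and marks mature AT1 cells, was at 58.0, 60.1 and 120 FPKM in control lungs and at 64.2, 29.5 and 36.7 FPKM after IL-33. The groups overlapped and the call was not made (log2 fold change -0.87, SE 0.36, edgeR adjusted p = 0.080). Without IL-33 replicate 1 it passed (log2 fold change -1.25, edgeR adjusted p = 0.026). Without control replicate 3 it did not, and the change was smaller (log2 fold change -0.45, edgeR adjusted p = 0.24). Its adjusted p lay between 0.0016 and 0.24 over 18 alternatives.

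**Figure D1:**
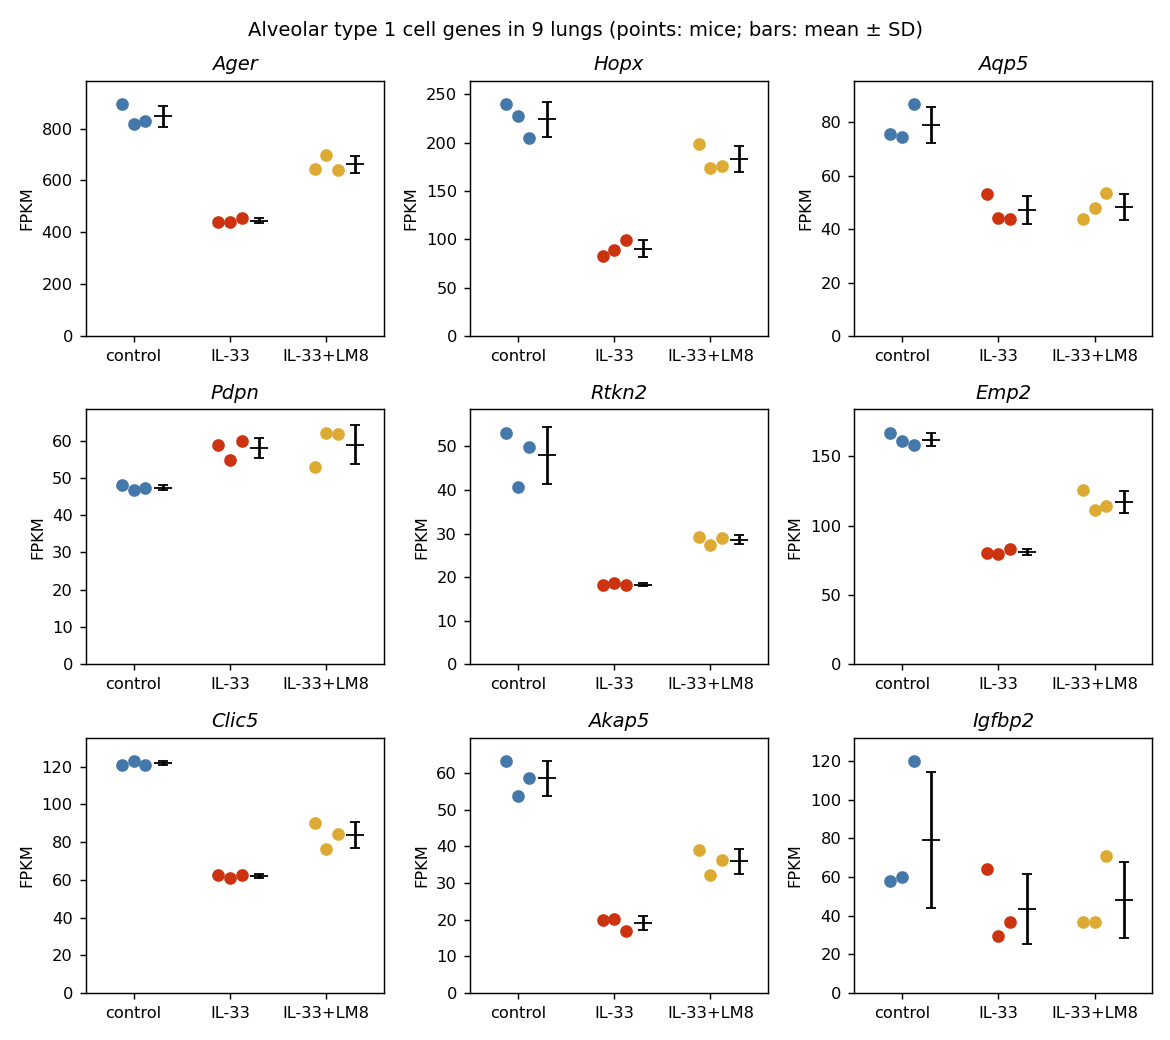
Level in FPKM (vertical axes, from 0) of each of the 9 AT1 genes in control, IL-33 and IL-33+LM8 lungs. Points are mice and bars are the mean and SD of 3 mice. In 6 panels the 3 groups stand apart in the order control, IL-33+LM8, IL-33, while *Aqp5* stays low in IL-33+LM8, *Pdpn* is lowest in control, and the groups of *Igfbp2* overlap.

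*Igfbp2* varied within each group, with a coefficient of variation between 41.4% and 44.4%, against at most 13.5% for any other of the 9 genes. Its highest value in every group came from the library with the largest total count, which was control replicate 3, IL-33 replicate 1 and IL-33+LM8 replicate 3, at 2.00, 1.75 and 1.94 times the next library of the group. Among 141 list genes tested, *Nkx2-1* and *Igfbp7* alone shared a ratio of at least 1.5 in all 3 groups, as did 99 of all 16831 genes, or 0.588%. *Nkx2-1* was at 23.3, 23.5 and 59.7 FPKM in control lungs, at 43.1, 20.2 and 24.3 FPKM in IL-33 lungs and at 19.4, 20.3 and 45.4 FPKM in IL-33+LM8 lungs. *Aqp5* was also highest in these libraries, by 1.12 to 1.20 times. *Ager* and *Clic5* were not, with ratios to the highest of the others between 0.912 and 0.994. Without the deepest library of each group *Igfbp2* passed as lower after IL-33 (log2 fold change -0.83, edgeR adjusted p = 0.0016). The part of the library in this pattern was not tested.

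**Figure D2:**
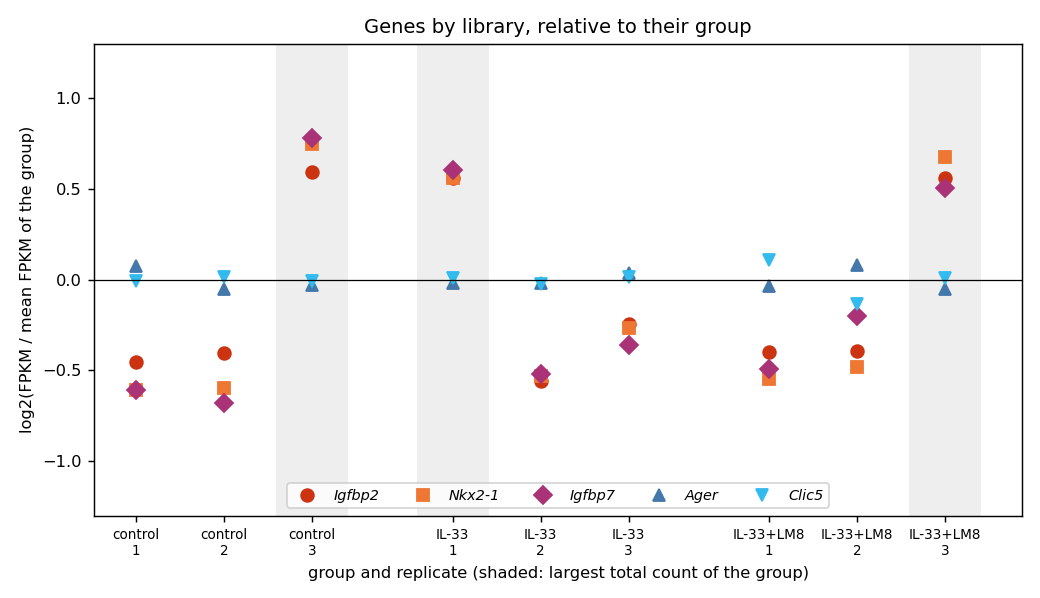
Log2 of FPKM over the mean of its group (vertical axis) for 5 genes in each of the 9 libraries (horizontal axis, by group and replicate), with the deepest library of each group shaded. *Igfbp2*, *Nkx2-1* and *Igfbp7* lie above 0 in the shaded libraries and below 0 in all others, while *Ager* and *Clic5* stay near 0 throughout.

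With LM8, 6 of the 9 AT1 genes were higher than with IL-33 alone and none was lower. Over all 16831 genes tested, 12.6% passed as higher and 13.9% as lower. The same 6 genes did not overlap between the groups, as was so for 21.2% of all genes in that direction, and *Hopx* alone also passed 2-fold, as did 1.46% of all genes. The median log2 fold change was 0.53 over the 9 genes and -0.0062 over all genes. This comparison shares the IL-33 mice with the one above, so a low or high IL-33 lung moves both.

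*Hopx* was at 199, 174 and 176 FPKM in the IL-33+LM8 lungs, below all control lungs and above all IL-33 lungs, and its mean was 2.03-fold that of IL-33 (log2 fold change 1.02, SE 0.089, edgeR adjusted p = 0.00030). *Akap5* was at 39.0, 32.3 and 36.4 FPKM, 1.88-fold that of IL-33 (log2 fold change 0.91, SE 0.089, edgeR adjusted p = 0.00044). *Rtkn2* was at 29.3, 27.4 and 29.0 FPKM, 1.56-fold that of IL-33 (log2 fold change 0.64, SE 0.045, edgeR adjusted p = 0.00016). For these genes the IL-33+LM8 lungs lay between the other groups without touching either.

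*Ager* was at 646, 700 and 639 FPKM with LM8, 1.49-fold that of IL-33 (log2 fold change 0.57, SE 0.068, edgeR adjusted p = 0.00099). *Emp2* was at 126, 111 and 114 FPKM, 1.44-fold that of IL-33 (edgeR adjusted p = 0.0013). *Clic5* was at 90.4, 76.4 and 84.5 FPKM, 1.35-fold that of IL-33 (edgeR adjusted p = 0.0039), the smallest of the 6 rises. Every IL-33+LM8 lung was above every IL-33 lung for these 3 genes. The call of *Clic5* was lost without the deepest library of each group (log2 fold change 0.43, edgeR adjusted p = 0.063), with adjusted p between 4.4e-08 and 0.063 over 18 alternatives.

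*Aqp5*, *Pdpn* and *Igfbp2* did not pass. *Aqp5* was at 43.8, 47.8 and 53.4 FPKM in the IL-33+LM8 lungs, overlapping the IL-33 lungs (log2 fold change 0.037, SE 0.097, edgeR adjusted p = 0.82). *Pdpn* was at 53.0, 62.1 and 61.7 FPKM, with overlap (log2 fold change 0.025, SE 0.078, edgeR adjusted p = 0.85). *Igfbp2* was at 36.5, 36.7 and 71.1 FPKM, with overlap (log2 fold change 0.15, SE 0.35, edgeR adjusted p = 0.80). The sign of all 3 changed when single mice were left out, so no direction is given.

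**Figure D3:**
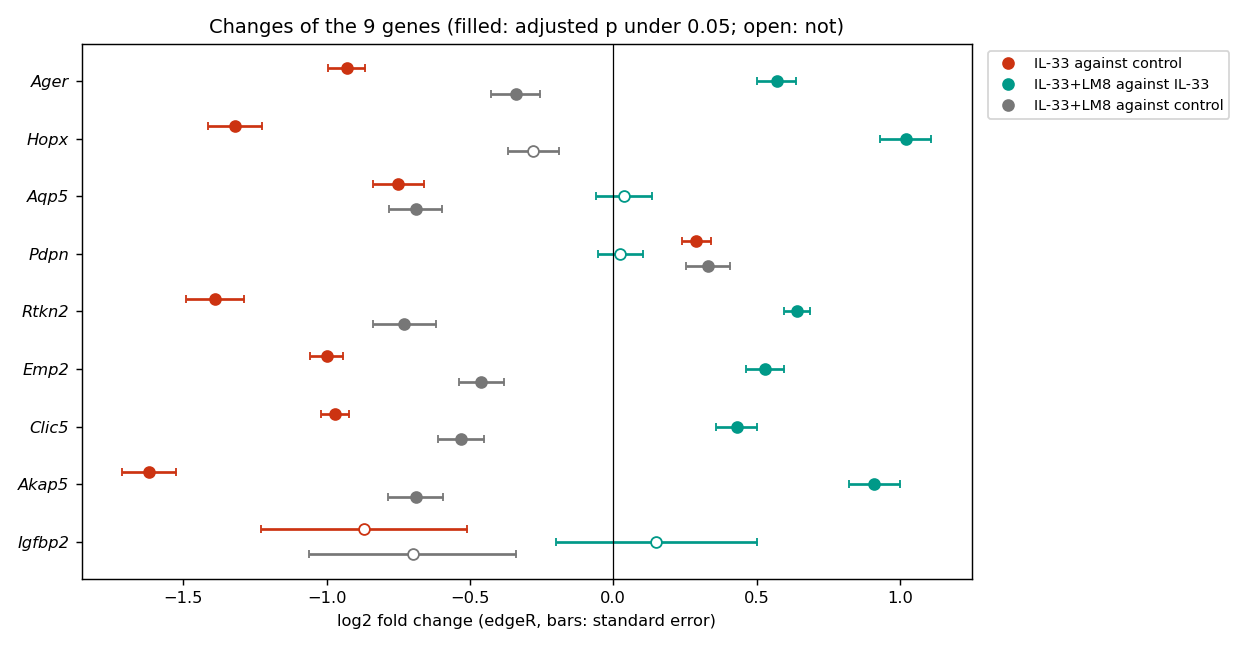
Log2 fold change with its standard error (horizontal axis, edgeR) of each AT1 gene in the 3 comparisons. Filled points passed at an adjusted p under 0.05. *Akap5* lies farthest to the left in IL-33 against control at -1.62, *Hopx* farthest to the right in IL-33+LM8 against IL-33 at 1.02, and *Pdpn* lies to the right of 0 in both comparisons with control.

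The lungs given LM8 did not reach the control level for most AT1 genes. Compared with control, 6 genes were lower, *Pdpn* was higher, and *Hopx* and *Igfbp2* did not pass. Over all 16829 genes tested, 13.4% passed as lower and 16.3% as higher. In 7 genes the IL-33+LM8 lungs were all below the control lungs, as in 23.9% of all genes, and no AT1 gene passed 2-fold. The median log2 fold change was -0.53 over the 9 genes and 0.0035 over all genes.

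*Rtkn2* was 1.68-fold lower than in control (log2 fold change -0.73, SE 0.11, edgeR adjusted p = 0.0026). *Akap5* was 1.63-fold lower (edgeR adjusted p = 0.0021), as was *Aqp5* (edgeR adjusted p = 0.0018). *Clic5* was 1.45-fold lower (edgeR adjusted p = 0.0033) and *Emp2* 1.38-fold lower (edgeR adjusted p = 0.0058), the last losing its call without the deepest libraries (edgeR adjusted p = 0.076, with a range from 1.1e-08 to 0.076 over 18 alternatives). *Ager* was 1.28-fold lower (log2 fold change -0.34, SE 0.086, edgeR adjusted p = 0.023). Its call was lost without control replicate 1 (log2 fold change -0.29), control replicate 3 (-0.37) or IL-33+LM8 replicate 3 (-0.32), and adjusted p lay between 7.1e-05 and 0.19 over 18 alternatives.

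*Pdpn* was 1.24-fold higher than in control (log2 fold change 0.33, SE 0.076, edgeR adjusted p = 0.017), and its call was lost without control replicate 2 (log2 fold change 0.33), control replicate 3 (0.32) or IL-33+LM8 replicate 3 (0.30). *Hopx* had a log2 fold change of -0.28 (SE 0.089, edgeR adjusted p = 0.052), just over 0.05 although its groups did not overlap, and it passed without control replicate 3 (-0.35) or IL-33+LM8 replicate 1 (-0.34). *Igfbp2* had a log2 fold change of -0.70 (SE 0.36, edgeR adjusted p = 0.18), with adjusted p between 0.00027 and 0.51 over 18 alternatives. In these groups libraries of the same number correlated in their deviations by 0.31 to 0.67. The highest value was that of control replicate 3 and IL-33+LM8 replicate 3, the deepest of their groups. With the replicate number as a block, *Hopx* (edgeR adjusted p = 0.0091) and *Igfbp2* (edgeR adjusted p = 0.00027) passed as lower, so that 9 of the 9 genes passed. How large a share of all genes passed with this block was not computed. Whether the block holds a pairing of mice or the pattern of the deepest libraries was not tested.

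In order of level, *Ager*, *Hopx*, *Rtkn2*, *Emp2*, *Clic5* and *Akap5* ran control, IL-33+LM8, IL-33, with no overlap between neighbours. The share of all genes with this full order was not computed. Pair by pair, IL-33+LM8 lay below control without overlap in 23.9% of all genes tested, and above IL-33 in 21.2%. *Aqp5* was highest in control, and its other groups did not differ beyond their spread. For *Pdpn* the order was IL-33+LM8, IL-33, control, with overlap of the upper pair, and for *Igfbp2* all 3 groups overlapped. Taken gene by gene, an exact two-sided permutation test of 3 against 3 mice has 0.1 as its smallest p, and it gave 0.1 for every gene without overlap.

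Most of the other AT1-associated genes listed here fell after IL-33, as did 7 of the 9. Like the 9, they were chosen with earlier results of these data known. Of 18 further AT1-associated genes, 17 fell and 0 rose, with a median log2 fold change of -0.99. Over all genes tested, 27.2% passed as lower. *Sec14l3* fell from 596 ± 23.4 to 272 ± 5.74 FPKM, *Cav1*, the coat protein of caveolae, from 387 ± 24.6 to 184 ± 3.92 FPKM, and *Cldn18*, a tight junction protein of the alveolus, from 125 ± 3.13 to 66.0 ± 1.07 FPKM. *Limch1* (log2 fold change -1.43), *Col4a3* (-1.34) and *Lama3* (-1.33), the latter pair being parts of the basement membrane, had the lowest values. Next came *Vegfa* (-1.25), *Cav2* (-1.20), *Sec14l3* (-1.13), *Cav1* (-1.07) and *Scnn1g* (-1.06). *Gramd2*, *Col4a4* and *Lmo7* each had -0.99, *Cryab* -0.96, *Clic3* -0.79, *Spock2* -0.67, *Gprc5a* -0.58 and *Krt7* -0.18. *Itgb6* did not pass (-0.15, edgeR adjusted p = 0.40). *Cav1*, *Cav2* and *Vegfa* are also made by other lung cells.

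With LM8, 14 of these 18 genes were higher than with IL-33 alone and 0 were lower, with a median of 0.56. Still lower than in control were 15, with a median of -0.46. Of all genes, 12.6% passed as higher than with IL-33 alone and 13.4% as lower than in control. *Cav2* rose most against IL-33 (log2 fold change 0.82), and *Scnn1g*, a subunit of the epithelial sodium channel, rose from 28.1 ± 0.444 to 45.0 ± 2.13 FPKM. *Gprc5a* (0.14, edgeR adjusted p = 0.14), *Spock2* (-0.097, edgeR adjusted p = 0.39), *Krt7* (-0.061) and *Itgb6* (-0.22) did not pass, like *Aqp5* among the 9.

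Among 12 regulators of AT1 fate, 5 fell after IL-33 and 0 rose, with a median log2 fold change of -0.41. Of all genes tested, 27.2% passed as lower. *Tead1* fell from 14.8 ± 1.57 to 7.47 ± 0.0296 FPKM (log2 fold change -0.99, edgeR adjusted p = 5.8e-05), and *Yap1*, its co-activator, from 13.9 ± 1.13 to 7.82 ± 0.502 FPKM (-0.83, edgeR adjusted p = 7.4e-05). *Tead4* (-0.75), *Tead3* (-0.61) and *Wwtr1*, which encodes TAZ (-0.47), fell less. *Nkx2-1* (-0.28, edgeR adjusted p = 0.61) and *Ctnnb1* (-0.072, edgeR adjusted p = 0.35) did not pass. With LM8, *Tead1*, *Yap1* and *Tead3* rose against IL-33 by 0.41, 0.39 and 0.34 on the log2 scale, where 12.6% of all genes passed as higher. These factors act in many lung cells.

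Most of the RAGE ligands went the other way from *Ager* after IL-33. Of 7 ligands, 5 rose after IL-33 and 0 fell, where 27.4% of all genes passed as higher. *S100a11* rose from 303 ± 16.4 to 514 ± 34.7 FPKM, *S100a4* had a log2 fold change of 3.04, and *S100b* and *Hmgb1* did not pass. *S100a8* and *S100a9*, abundant in neutrophils, rose after IL-33 by 1.77 and 1.67 on the log2 scale and were higher again with LM8. *S100a9* was at 15.0 ± 3.14 FPKM in control, 47.9 ± 8.61 with IL-33 and 509 ± 46.9 with IL-33+LM8. Against IL-33 alone, 2 ligands were thus higher with LM8, and 2 were lower, *S100a4* (log2 fold change -0.89, edgeR adjusted p = 0.0039) and *S100a11* (-0.31, edgeR adjusted p = 0.025).

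Close relatives of the 9 genes were mixed. Of 18 paralogs, 10 fell and 4 rose after IL-33, with a median of -0.36, where 27.2% of all genes passed as lower and 27.4% as higher. *Pmp22*, a relative of *Emp2*, was at 163, 155 and 157 FPKM in control lungs and at 72.1, 76.2 and 76.4 FPKM after IL-33, whereas *Emp3*, another, was at 23.0, 23.2 and 19.5 FPKM and then at 49.6, 59.3 and 58.1 FPKM. *Clic1*, a relative of *Clic5*, was at 80.5, 86.3 and 81.3 FPKM in control and at 151, 144 and 154 FPKM after IL-33. *Aqp1*, the water channel of endothelium, fell from 305 to 198 FPKM (log2 fold change -0.62), and *Clic4* from 136 to 117 FPKM (-0.22, edgeR adjusted p = 0.049). *Igfbp7*, a relative of *Igfbp2*, did not pass (0.38, edgeR adjusted p = 0.52). *Emp3* and *Clic1* are also made by leukocytes.

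Lists for other cells of the lung set the scale. After IL-33, 27.2% of all genes passed as lower and 27.4% as higher. Over 7 genes of all epithelium, 1 rose and 1 fell after IL-33, with a median of -0.13, and their summed level was 164 to 185 FPKM in control, 154 to 170 with IL-33 and 162 to 173 with IL-33+LM8. *Cdh1* and *Cldn3* did not pass. *Epcam* rose from 21.5 to 26.0 FPKM (edgeR adjusted p = 0.043), although its groups overlapped, and *Grhl2* fell (log2 fold change -0.56, edgeR adjusted p = 0.0019). Of 10 AT2 genes, 5 fell and 1 rose, with a median of -0.24: *Sftpc* fell (log2 fold change -1.15) and *Sftpb* fell (-0.68), while *Sftpa1* did not pass (0.16, edgeR adjusted p = 0.087). Of 8 genes of the transitional alveolar state that lies between AT2 and AT1 cells, 3 rose and 2 fell. *Lgals3*, also abundant in macrophages, rose from 36.9 to 229 FPKM and *Krt18* by 0.23 on the log2 scale, while *Krt8* did not pass (0.081, edgeR adjusted p = 0.30).

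The capillary lists and the club and ciliated list had medians about as low as that of the AT1 genes. Of 8 genes of the capillary aerocyte, the endothelial cell that faces AT1 cells, 6 fell and 0 rose after IL-33, with a median of -1.16, among them *Fibin* (-1.43) and *Car4* (-0.57), while *Tbx2* did not pass. Of 8 genes of general capillary cells, 7 fell, with a median of -0.90. *Cdh5* fell from 200 to 94.9 FPKM and *Plvap* from 195 to 132 FPKM, and *Cldn5* did not pass. Of 8 genes of club and ciliated cells, 7 fell, with a median of -0.90, among them *Scgb1a1* (-1.29), *Cyp2f2* (-2.57) and *Scgb3a2* (-3.52). Medians of this size were thus not limited to AT1 genes, and no difference between lists was tested. With LM8, 7 of 8 general capillary genes (median 0.55), 6 of 8 club and ciliated genes (0.48), 4 of 8 aerocyte genes (0.32), 4 of 10 AT2 genes (0.099) and 1 of the 7 genes of all epithelium (0.082) were higher than with IL-33 alone, and 0 of them were lower. The share of all genes that passed as higher was 12.6%.

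All 8 leukocyte genes rose, with a median of 1.93. Their summed level went from 169 to 189 FPKM in control to 685 to 709 with IL-33 and 473 to 487 with IL-33+LM8, and the lowest AT1 levels thus stood where leukocyte RNA was highest. *Itgb2*, *Coro1a* and *Arhgdib* rose by 2.23, 2.16 and 1.95 on the log2 scale. With LM8, all 8 leukocyte genes were lower than with IL-33 alone and higher than in control. Their part in the AT1 values was not tested. Lymphatic endothelium and mesothelium were named above as also making *Pdpn*. Which cells held the higher *Pdpn* was not tested. Of 7 lymphatic genes, 4 fell and 1 rose after IL-33 (median -0.40). *Lyve1* (-0.64), *Ccl21a* (-0.53) and *Flt4* (-0.62) were lower. *Prox1* rose (0.36), and *Nts* had 1.29 without passing (edgeR adjusted p = 0.054), at low means of 0.823 and 1.25 FPKM with IL-33. Of 5 mesothelial genes tested, 3 fell (median -1.04), *Gpm6a* (-1.04) and *Upk1b* (-1.36) among them, while *Msln* did not pass. Of 8 fibroblast genes 5 fell (median -0.63), and the collagens *Col1a1*, *Col1a2* and *Col3a1* rose by 2.15, 1.49 and 2.04 on the log2 scale.

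**Figure D4:**
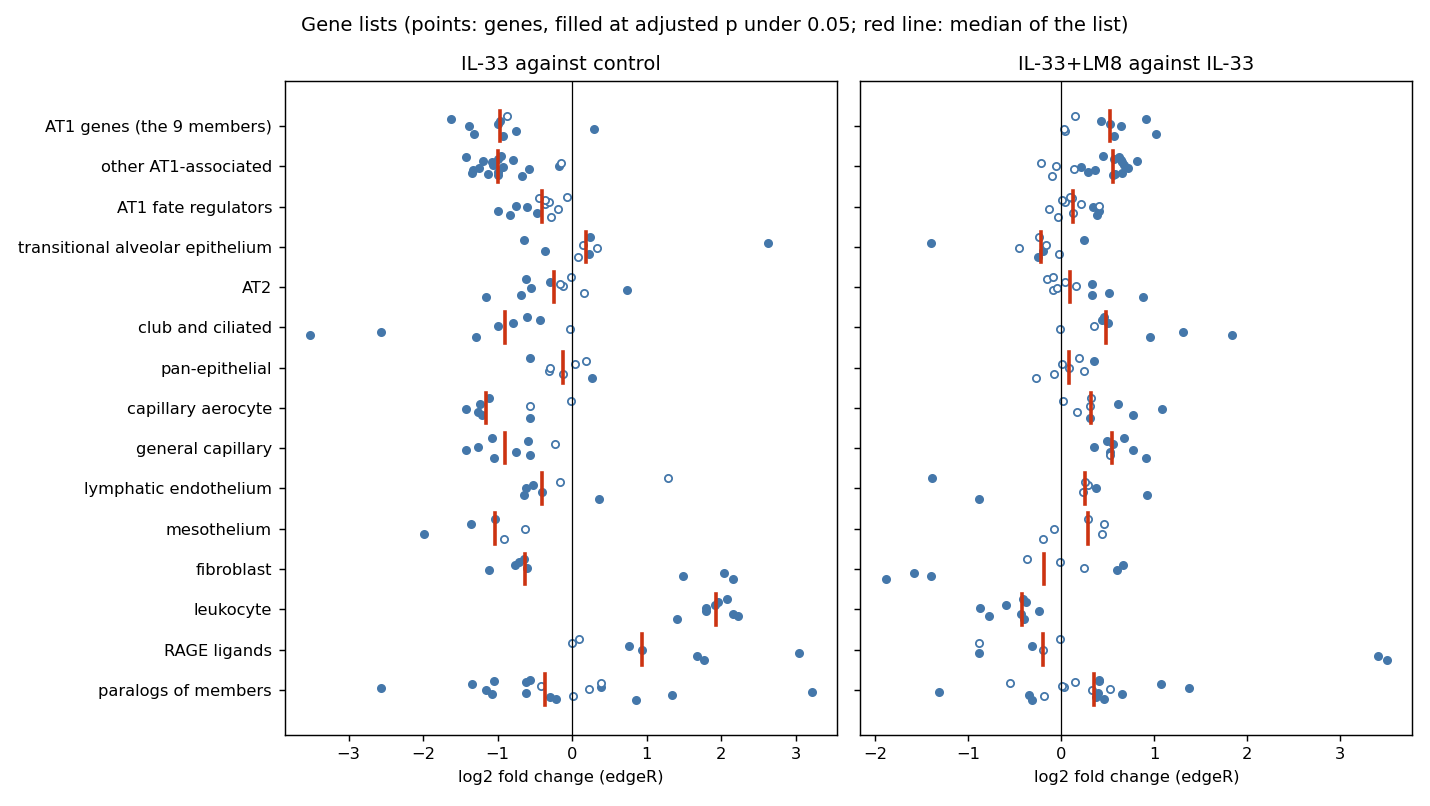
Log2 fold change (horizontal axes, edgeR) of each gene, by list, on the left for IL-33 set against control and on the right for IL-33+LM8 set against IL-33. Points are genes, filled where they passed at an adjusted p under 0.05, and red lines are list medians. The AT1 genes, with medians of -0.97 and 0.53, lie beside the capillary and club cell lists, and the leukocyte list, with medians of 1.93 and -0.42, lies opposite.

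Set against the list of all epithelium and the AT2 list, the AT1 genes were low after IL-33 in every mouse. They were not set against the club and ciliated list, whose median log2 fold change after IL-33 was -0.90. The mean log2(FPKM + 1) of the 9 genes minus that of the 7 genes of all epithelium was 2.95, 2.72 and 2.85 in control lungs, 2.07, 2.00 and 1.92 in IL-33 lungs, and 2.38, 2.31 and 2.51 in IL-33+LM8 lungs. The groups did not overlap. Minus the mean of the AT2 genes, it was -1.15 ± 0.092 (SD, n = 3) in control, -1.81 ± 0.074 with IL-33 and -1.53 ± 0.10 with IL-33+LM8, in the same order. No p is given for these means, since the 9 genes were chosen together.

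The genes closest in profile to the AT1 genes were sought among 16822 other genes, by the root mean square difference of log2(FPKM + 1), each gene centred on its own mean, over the 9 mice. *Cadm1* (0.0564), *Lmo7* (0.0576), *Ankrd40* (0.0585), *Fermt2* (0.0587) and *Npr1* (0.0608) were nearest to the mean of the 9 genes. *Wwc1* (0.0535), *Ldb2* (0.0571), *Ctla2a* (0.0581), *Wscd1* (0.0650) and *Fhdc1* (0.0654) were nearest to *Ager*. *Wwc1*, for example, was at 54.8 ± 1.23 FPKM in control, 30.1 ± 0.0875 with IL-33 and 43.9 ± 1.00 with IL-33+LM8. Within the 9 genes, *Clic5* (0.0798) and *Emp2* (0.0878) were nearest to their mean, and *Igfbp2* (0.427) and *Pdpn* (0.509) farthest from it.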

How the data were processed

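Lung RNA was extracted with TRIzol and sequenced in pairs of 150 bases. The authors deposited 1 table with a raw read count and an FPKM value per gene and mouse, made by their sequencing company. Their processing notes name HISAT2 2.0, StringTie 1.3.0, Bowtie 0.12.2 and mm10 without roles. Mice were grouped by the labels, which do not say what the replicate numbers share.

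Counts were tested with edgeR 4.0.16 (R 4.3.3, limma 3.58.1, TMM, quasi-likelihood), fitting the 6 mice of a comparison by themselves and keeping genes that averaged 0.5 FPKM or more and had a count above 0. P-values were adjusted over all genes, and the standard error is the log2 fold change over the square root of F. Fold multiples are ratios of mean FPKM. FPKM scales with the whole library, so each value is a share of lung RNA. The fits were tested on simulated counts. The members and gene lists were chosen with earlier results of these data known. Named genes are the members, the 3 most abundant genes of each list, every AT1-associated gene or fate regulator that passed after IL-33, and the 5 nearest profiles. Other genes named, and the genes whose promoters are shown, were chosen after their values were seen. No library was a copy of another, since the variance between libraries of a group was 21.9 or more times that of sampling.

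Deviations from group means correlated between libraries of the same number by 0.31 to 0.67 in IL-33+LM8 against control. The other comparisons had -0.42 to 0.28 and -0.40 to 0.22. The source is the data alone, and control replicate 3 and IL-33+LM8 replicate 3 are also the deepest of their groups. IL-33 replicate 1, the deepest of its group, correlated with these by 0.65 and 0.67 although the numbers differ. Between replicates 1 and 2 of IL-33+LM8 and control, unlike numbers correlated by 0.17 and 0.20. Pairing by replicate number was therefore not settled. Alternatives covered filters, scalings, DESeq2 1.42.0, limma on log2 values of the deposited FPKM, thresholds, a fit of all 9 mice, the replicate block and single mice left out.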

Additional observations from a re-analysis of the deposited data

How the results depend on the processing

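The calls changed mainly with a minimum fold. Where a log2 fold change of 1 or more in size was also required, 4 of the AT1 genes passed in IL-33 against control, 1 in IL-33+LM8 against IL-33 and 0 in IL-33+LM8 against control, instead of 8, 6 and 7, because most changes were below 2-fold. Leaving out 1 mouse at a time gave 8 to 9 genes, 6 genes and 5 to 8 genes. The log2 fold change in IL-33+LM8 against IL-33 turned negative in some of these for *Aqp5* (-0.03 to 0.13), *Pdpn* (-0.021 to 0.10) and *Igfbp2* (-0.23 to 0.54), none of which passed. Without *Igfbp2* and *Pdpn*, the AT1 level relative to all epithelium differed by -1.03 in IL-33 minus control and by 0.52 in IL-33+LM8 minus IL-33, and that relative to AT2 genes by -0.85 and 0.39. With the replicate block 8, 6 and 9 genes passed, and it changed no call but those of *Hopx* and *Igfbp2* in IL-33+LM8 against control. Without the deepest library of each group, a setting chosen after seeing the data, 9, 5 and 5 genes passed. Scaling by genes of all epithelium, also chosen after seeing the data, moved the median of all genes by about 0.11 and 0.12 (log2) in the comparisons with control, and *Ager* in IL-33+LM8 against control then no longer passed (-0.23, edgeR adjusted p = 0.088). DESeq2 passed 8, 6 and 8 genes. For the settings other than the minimum fold, the share of all genes that passed was not computed. For single genes, 452 values stayed on the same side of 0 and of the threshold, 13 fell out of the calls, 14 came in and 7 changed sign. Each gene had at least 3411 reads per library, and what limits the precision was not tested.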

Other observations

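The AT1 genes did not all keep their ratio to *Ager* between the lungs given IL-33 with and without LM8, a pattern chosen after the values were seen and given as a description. The log2 ratios of *Pdpn*, *Aqp5*, *Hopx* and *Akap5* to *Ager* did not overlap between these groups. How many of all genes would do the same was not computed. For *Akap5* the nearest lungs of the groups were both at -4.44 after rounding. The mean ratio was lower with LM8 for *Pdpn* (difference -0.55) and *Aqp5* (-0.53), and higher for *Hopx* (0.45) and *Akap5* (0.34). For *Aqp5* it was -3.05, -3.31 and -3.38 in IL-33 lungs and -3.88, -3.87 and -3.58 in IL-33+LM8 lungs. The ratios of *Rtkn2*, *Emp2*, *Clic5* and *Igfbp2* overlapped.

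The surfactant proteins of AT2 cells differed in direction in the same lungs. *Sftpd* rose from 267 ± 20.3 FPKM in control to 442 ± 11.7 with IL-33 (SD, n = 3, log2 fold change 0.73, edgeR adjusted p = 0.00011), and stood at 416 ± 44.0 with IL-33+LM8. *Lpcat1*, an enzyme of surfactant lipid synthesis, fell from 51.2 ± 3.22 to 33.3 ± 2.93 FPKM after IL-33 (edgeR adjusted p = 0.00040) and was at 29.9 ± 2.65 with IL-33+LM8, which did not pass against IL-33 (edgeR adjusted p = 0.24).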
